A study of Mus musculus with 6 samples.

Results

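Notch signalling genes were followed in the whole uterus of female mice killed on postnatal day 21. The set holds 10 genes chosen by symbol: the receptors Notch1, Notch2, Notch3 and Notch4, the ligands Jag1, Jag2, Dll1 and Dll4, and the target genes Hey1 and Heyl. All 10 were found among the 20637 genes that each deposited table lists, and all 10 passed the filter on low values, which asks for a level of 1 or more in 3 or more libraries and left 12640 genes for testing. Poly(A) RNA libraries came from 3 uteri labelled Nat10 f/f, the floxed controls, and 3 labelled Nat10 d/d, in which Nat10 is deleted. Nat10 encodes an acetyltransferase that modifies cytidines in RNA. The comparison asks how gene expression in the uterus differs when Nat10 has been deleted. Neither the strain, the Cre driver and the cells it acts in, the deleted exons nor any pooling of animals is given in the sources used here. The labels do not say outright that replicates are separate animals, so p-values measure the spread between these samples, whatever its source.

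In the canonical pathway a Notch receptor on one cell binds a Jagged or Delta-like ligand on a neighbouring cell. The bound receptor is cut by an ADAM protease and then by gamma-secretase. The freed intracellular part joins the DNA-binding protein RBPJ and a Mastermind coactivator to switch on target genes such as those of the Hes and Hey families, which encode basic helix-loop-helix repressors. In many tissues Notch4 and Dll4 are known from endothelium and Notch3 and Heyl from the mural cells around vessels, that is, pericytes and vascular smooth muscle.

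The promoters of the receptors are shown first, because the receptors are the members in which every average was lower in Nat10-deleted uteri. Each line gives the 110 bases before the RefSeq transcription start (build GRCm38.p6), 5′ to 3′ on the gene's own strand, and capitals mark the letters GGGCGG or their reverse complement CCGCCC, the core of the GC box that Sp1-type factors bind. The pieces are chr2:26503823-26503932 (minus strand) for Notch1, chr3:98013428-98013537 (plus strand) for Notch2, chr17:32166891-32167000 (minus strand) for Notch3 and chr17:34564185-34564294 (plus strand) for Notch4.
Notch1: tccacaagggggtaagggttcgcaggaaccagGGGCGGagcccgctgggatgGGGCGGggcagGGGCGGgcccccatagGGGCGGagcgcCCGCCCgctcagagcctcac
Notch2: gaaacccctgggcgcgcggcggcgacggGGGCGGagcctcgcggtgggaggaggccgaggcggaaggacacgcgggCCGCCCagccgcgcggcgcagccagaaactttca
Notch3: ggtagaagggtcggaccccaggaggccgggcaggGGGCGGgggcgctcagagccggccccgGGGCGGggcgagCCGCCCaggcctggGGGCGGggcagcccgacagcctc
Notch4: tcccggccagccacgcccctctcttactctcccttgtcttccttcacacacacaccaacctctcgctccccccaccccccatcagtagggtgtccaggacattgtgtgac

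Over the full 250 bases before the start, Notch1, Notch2 and Notch3 held 5, 5 and 4 matches on either strand, overlapping matches counted separately, and Notch4 held 0. Of the 32851 promoters in the RefSeq table, 32.7% held at least 1 match in this window and 4.09% held 4 or more. Among the ligands, Jag2 held 5 matches and Dll4 held 2, while Jag1 and both listed promoters of Dll1 held 0. Of the 10 members, 8 had an entry in that table, all but Hey1 and Heyl. The GC content of the receptor windows was 66.0% for Notch1, 72.0% for Notch2, 68.8% for Notch3 and 58.4% for Notch4.

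The letters GTGGGAA, or TTCCCAC on the other strand, the core that RBPJ is known to bind, were in 5.42% of all promoters and in 0 of the 9 promoters listed for 8 members. They were found in 6 of the 51 promoters listed for 38 other Notch pathway genes, among them those of Lfng, a glycosyltransferase that modifies Notch receptors, and Hey2, a relative of Hey1. Both windows are printed with the match in capitals, because they carry the letters of the pathway's own DNA-binding factor. A match is a description of the sequence and no evidence of binding. They lie at chr5:140607220-140607250 (plus strand) for Lfng and chr10:30842972-30843002 (minus strand) for Hey2.
Lfng: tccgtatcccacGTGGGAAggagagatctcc
Hey2: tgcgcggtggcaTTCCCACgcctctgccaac

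The files hold FPKM-type values, which are scaled by transcript length and by sequencing depth, so levels can be set side by side between genes. Their sums per library lay between 500764 and 549263, and read totals, and therefore depth, are unknown. Nat10 itself was 13.2, 16.4 and 9.95 in control replicates 1, 2 and 3, against 5.57, 5.23 and 5.53 in the corresponding deleted libraries, so the groups did not overlap. Even so, Nat10 did not pass the test, with a log2 change of -1.11 (limma unadjusted p = 0.000265, adjusted p = 0.669 over all genes tested). The test thus did not call even the deleted gene, so failing it is no evidence that a gene was unchanged. Proliferation markers, summed over 10 genes, were 72.45, 18.38 and 47.72 in controls but 17.23, 178.4 and 8.916 in the deleted libraries, so that Nat10-deleted replicate 2 stands apart from the others. Control replicate 1 was the highest of the 6 in the 5 fat markers, with a sum of 51.02 against 0.9793 to 9.88 in the other libraries, and in the 5 blood markers, at 5581 against 709.4 to 2629. Of all genes tested, 43.4% had a log2 change below 0 and 4.6% were lower in deleted uteri without overlap. All 5 markers of either list were lower on average in deleted uteri, with 0 of them free of overlap. For fat this direction rests on control replicate 1, since the other 2 controls summed to 0.9793 and 2.906, against 9.88, 5.681 and 1.965 in deleted libraries. Markers of smooth muscle, stroma and epithelium were above 0 in every library. The 6 ovary markers summed to 9.731 to 11.89 in controls, against 7.786 to 13.99 after deletion, with Fshr and Zp3 listed at 0 in all 6 libraries. The 5 markers of oviduct and ciliated cells summed to 4.231 to 7.879, against 3.916 to 6.723, with Dynlrb2 listed at 0 in all 6.

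In control uteri, Jag1 had the highest mean level of the 10 members, at 22.3 ± 1.83 FPKM-type units (SD, n = 3). It was followed by Notch2 (20.7 ± 1.23), Notch3 (20.3 ± 1.46), Notch1 (15.5 ± 1.09), Dll4 (12.8 ± 1.42), Jag2 (11.5 ± 1.25), Heyl (8.26 ± 0.889), Hey1 (6.77 ± 0.0769), Notch4 (4.61 ± 0.393) and Dll1 (1.76 ± 0.312). The ranges of Jag1, Notch2 and Notch3 overlapped, as did those of Notch1 and Dll4 and those of Dll4 and Jag2, so these neighbours were not separated by the spread between controls. Heyl, Hey1, Notch4 and Dll1 each had a range of its own. Among all listed genes, the control mean of Jag1 lay at percentile 80.7, that of Notch4 at percentile 50.9 and that of Dll1 at percentile 42.3.

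**Figure D1:**
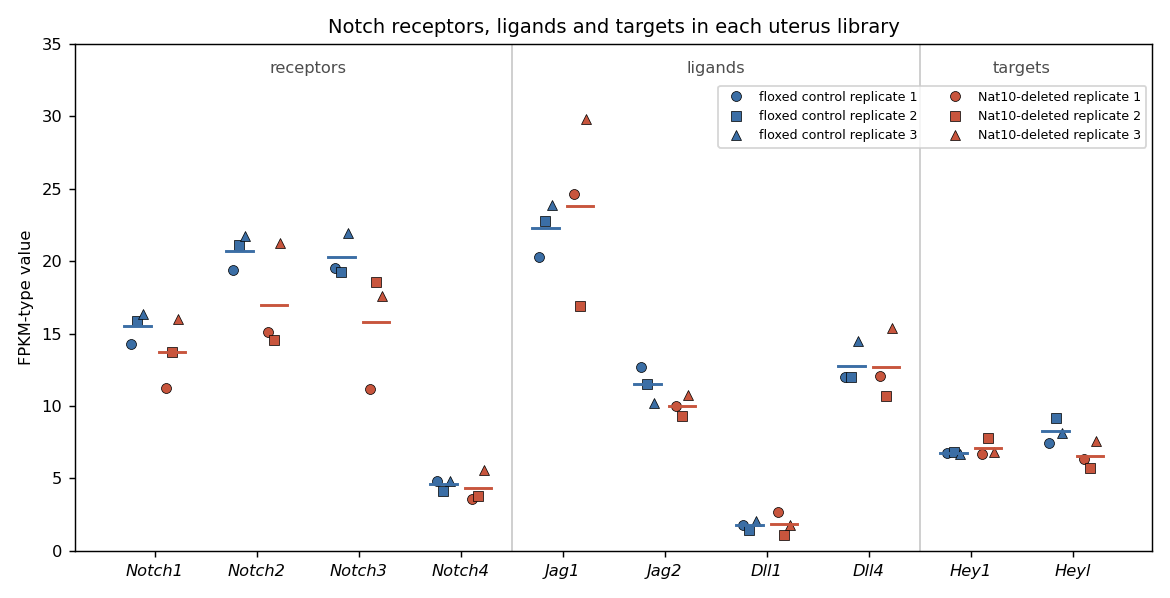
FPKM-type value (y axis) of each member (x axis) in the 3 floxed control libraries (blue) and the 3 Nat10-deleted libraries (red), with the replicate number given by the symbol and the group mean by a bar. The deleted libraries spread more widely than the controls for every member but Jag2, and only for Notch3 do all 3 lie below the controls.

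Averages of all 4 receptors were lower in Nat10-deleted uteri, with log2 changes from -0.37 to -0.10, but none passed the test (limma adjusted p of 0.922 or more). Notch3 (ENSMUSG00000038146; chr17:32120820-32166852, minus strand, GRCm38), the receptor known from mural cells, was 19.5, 19.3 and 21.9 in controls, against 11.2, 18.6 and 17.6 in Nat10-deleted replicates 1, 2 and 3. All 3 deleted libraries lay below all 3 controls, though replicate 2 lay just under the lowest control and replicate 1 far below it. The deleted mean was 77.99% of the control mean. The log2 change on the log2(value + 1) scale was -0.37 with a standard error of 0.19 and a 95% interval from -0.81 to 0.07 (limma, unadjusted p = 0.0888, adjusted p = 0.922 over all genes tested). The exact two-sided permutation p was 0.1, the smallest that 3 libraries against 3 allow. Without Nat10-deleted replicate 1 the log2 change was -0.15.

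Notch2 (ENSMUSG00000027878; chr3:98013527-98150361, plus strand), a broadly expressed receptor, was 19.4, 21.1 and 21.7 in controls, against 15.1, 14.6 and 21.3 in deleted libraries. Nat10-deleted replicates 1 and 2 were below every control and replicate 3 was inside the control range. The log2 change was -0.29 (95% interval -0.66 to 0.07; limma adjusted p = 0.922), or -0.46 when Nat10-deleted replicate 3 was left out.

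Notch1 (ENSMUSG00000026923; chr2:26457903-26516663, minus strand), the receptor with the best-known roles in epithelial and vascular cell fate, was 14.3, 15.8 and 16.4 in controls, against 11.2, 13.8 and 16.0 in deleted libraries. Its order of libraries resembled that of Notch2 in that replicates 1 and 2 were below the controls and replicate 3 was among them. Its log2 change was -0.18 (95% interval -0.52 to 0.15; limma adjusted p = 0.926). Leaving out Nat10-deleted replicate 1 gave -0.06 and leaving out replicate 3 gave -0.29.

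Notch4 (ENSMUSG00000015468; chr17:34564268-34588503, plus strand), the endothelial receptor, was 4.84, 4.16 and 4.84 in controls, against 3.57, 3.8 and 5.58 in deleted libraries. The deleted libraries lay on both sides of the control range, with replicates 1 and 2 below it and replicate 3 above it. The fitted log2 change was -0.10 (95% interval -0.49 to 0.30; limma adjusted p = 0.974). Leaving out Nat10-deleted replicate 1 gave 0.0035 and leaving out replicate 3 gave -0.26.

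Summed over the 4 receptors, the level was 58, 60.4 and 64.9 in controls, against 41.1, 50.7 and 60.4 in deleted libraries. Nat10-deleted replicate 3 was thus among the controls and the other two below them. The make-up of the sum was close to constant in controls: Notch2 made up 33.4%, 34.9% and 33.5%, Notch3 33.7%, 31.9% and 33.8%, Notch1 24.6%, 26.2% and 25.2%, and Notch4 8.3%, 6.9% and 7.5%. In deleted libraries the Notch3 share was 27.2%, 36.7% and 29.1% and the Notch2 share 36.8%, 28.7% and 35.2%, so both moved on either side of the control range and in opposite directions. The Notch1 share was 27.3%, 27.1% and 26.5%, above every control, although its level was not. These shares are a description and were given no test.

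The receptor transcripts are long and rich in G and C: the longest annotated transcript has 9488 bases for Notch1, 10500 for Notch2, 8016 for Notch3 and 6591 for Notch4, with a GC content between 53.6% and 61.2%. When each library was corrected for GC content and transcript length by a loess curve, chosen after the data were seen, the curve took between -0.22 and -0.15 log2 units out of the 4 receptors in Nat10-deleted replicates 1 and 2, whereas its values were 0.09 to 0.11 in replicate 3 and 0.07 to 0.13 in controls. Replicates 1 and 2 are also the deleted libraries in which Notch1, Notch2 and Notch4 lay below the controls. Notch3 had another order: it differed from its control mean by -0.8, -0.11 and -0.19 in replicates 1, 2 and 3. Its curve values there were -0.21, -0.17 and 0.1. After that correction the log2 changes were -0.0037 for Notch1, -0.15 for Notch2, -0.18 for Notch3 and 0.10 for Notch4. Jag2, whose longest transcript is 61.9% G and C, moved in the same way, from -0.17 to -0.01. Heyl, which also lay below the controls in replicates 1 and 2 alone, had curve values of -0.09 and -0.07 there and a log2 change of -0.23 after the correction, from -0.30. Hey1, at 52.6% G and C, had curve values between -0.03 and 0.06. The part of GC content and length in the members' changes was not tested.

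**Figure D2:**
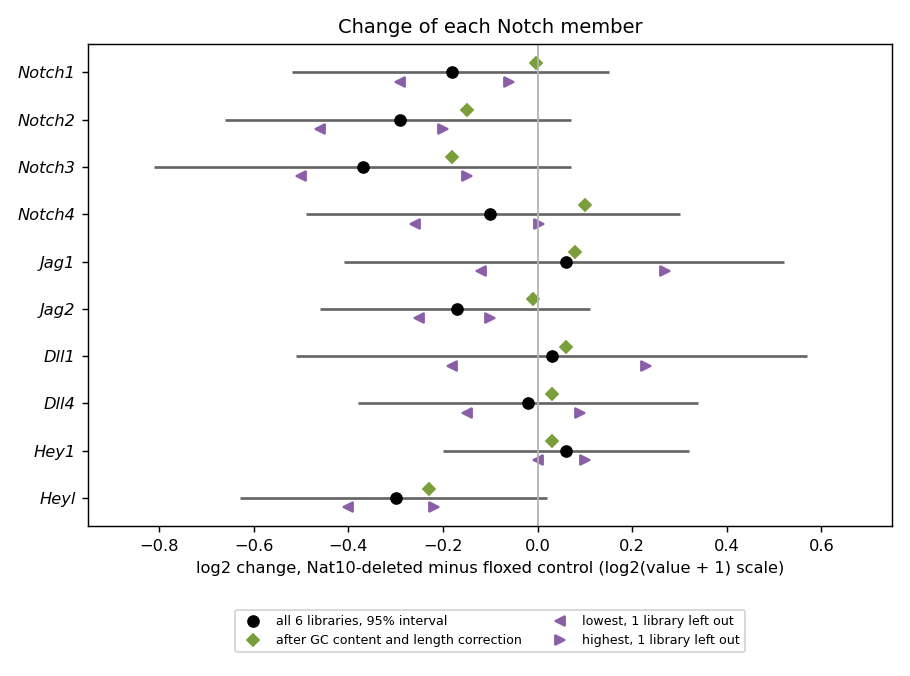
Log2 change of each member, Nat10-deleted minus floxed control, on the log2(value + 1) scale (x axis), with its 95% interval from limma (black), the value after correction for GC content and length (green), and the lowest and highest values when 1 library is left out (purple). Every interval includes 0, and the 4 receptors and Jag2 lie closer to or above 0 after the correction.

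None of the ligands passed the test, and their averages went both ways, from -0.17 for Jag2 to 0.06 for Jag1. Jag1 (ENSMUSG00000027276; chr2:137081456-137116644, minus strand), the most abundant member, was 20.3, 22.8 and 23.9 in controls, against 24.7, 16.9 and 29.8 in deleted libraries. Nat10-deleted replicates 1 and 3 were above every control and replicate 2 was below every control. The log2 change was 0.06 (95% interval -0.41 to 0.52; limma adjusted p = 0.989). Its direction turned with the library left out. It was 0.27 without Nat10-deleted replicate 2, -0.12 when replicate 3 was left out instead, and -0.01 without control replicate 1.

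Jag2 (ENSMUSG00000002799; chr12:112907819-112929776, minus strand), the other Jagged ligand, was 12.7, 11.5 and 10.2 in controls, against 10.03, 9.33 and 10.7 in deleted libraries. It was the one member whose standard deviation was smaller in deleted uteri (0.703 against 1.25), and only replicate 3 reached into the control range. Its log2 change was -0.17 (95% interval -0.46 to 0.11; limma adjusted p = 0.926). It was -0.10 without control replicate 1.

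Dll4 (ENSMUSG00000027314; chr2:119325784-119335962, plus strand), the Delta-like ligand of sprouting and arterial endothelium, was 11.98, 12.01 and 14.5 in controls, against 12.1, 10.7 and 15.4 in deleted libraries. Its group means were 12.8 and 12.7, and replicate 3 was the highest library in both groups. The log2 change was -0.02 (95% interval -0.38 to 0.34; limma adjusted p = 0.993). Without Nat10-deleted replicate 3 it was -0.15, and it was 0.06 without control replicate 3, 0.01 without deleted replicate 1 and 0.09 without deleted replicate 2.

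Dll1 (ENSMUSG00000014773; chr17:15367354-15376872, minus strand), a Delta-like ligand used in many developing tissues, was the lowest member at 1.78, 1.44 and 2.06 in controls, against 2.72, 1.12 and 1.78 in deleted libraries. Its deleted libraries held both the highest and the lowest of the 6 values. The log2 change was 0.03 (95% interval -0.51 to 0.57; limma adjusted p = 0.993). It was 0.23 without Nat10-deleted replicate 2, -0.18 without replicate 1 of that group, -0.06 without control replicate 2 and -0.0011 after median centring.

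Summed over the 4 ligands, the level was 46.7, 47.8 and 50.6 in controls, against 49.5, 38 and 57.7 in deleted libraries. The sum was highest in Nat10-deleted replicate 3 and lowest in replicate 2, and the group means were both 48.4. Jag1 made up 46.1% ± 2.3 of it in controls, against 48.6% ± 3.8 after deletion, and Dll4 made up 26.5% ± 1.9, against 26.4% ± 1.9 (SD, n = 3 each).

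The averages of the Hey family members lay on either side of the control means, and neither passed the test. Hey1 (ENSMUSG00000040289; chr3:8663359-8667256, minus strand), a repressor switched on by Notch in vessels and elsewhere, was 6.76, 6.85 and 6.69 in controls, against 6.71, 7.82 and 6.83 in deleted libraries. Its coefficient of variation among controls was 1.1%, the lowest of the 10 members, and among the deleted libraries only replicate 2 lay above the control range. The fitted log2 change was 0.06 (95% interval -0.20 to 0.32; limma adjusted p = 0.976), and leaving out Nat10-deleted replicate 2 gave 0.0006.

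Heyl (ENSMUSG00000032744; chr4:123233556-123249875, plus strand), the family member known from mural cells downstream of Notch3, was 7.44, 9.2 and 8.15 in controls, against 6.32, 5.7 and 7.59 in deleted libraries. Nat10-deleted replicates 1 and 2 were below every control, and replicate 3 was just above control replicate 1. The deleted mean was 79.1% of the control mean. Its log2 change was -0.30 (95% interval -0.63 to 0.02; limma unadjusted p = 0.0648, the smallest of the members, adjusted p = 0.922), and it lay between -0.40 and -0.22 when 1 library was left out.

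Read as a set, 7 of the 10 members had a log2 change below 0, against 43.4% of all genes tested. The median change was -0.14, beside 0.03 for all genes. It was -0.24 without Nat10-deleted replicate 3, -0.08 without replicate 2 of that group and -0.09 without control replicate 1. No member and no gene at all passed an adjusted p of 0.05 in limma (0% of 12640), and 0 members had an unadjusted p under 0.05, against 4.98% of all genes. In the deposited values, without the GC content and length correction, every deleted library lay below every control for 1 member, Notch3. Of all genes 4.6% had this pattern, 6.12% had the opposite one and 10.7% had either. After the GC content and length correction, 5 members were below 0 and 5 above, with a median of 0.01. With median centring the split was 8 below and 2 above. Without Nat10-deleted replicate 2, the library with the high proliferation markers, it was 6 below and 4 above, and 1 member, Notch3, had an unadjusted p under 0.05 (limma), against 13.6% of all genes in that fit. Without Nat10-deleted replicate 3, every remaining deleted library lay below every control for 6 members, where 14.7% of all genes did so with these 5 libraries, and 2 members, Notch2 and Heyl, had an unadjusted p under 0.05 (limma), against 11.1% of genes. In none of the fits with 1 library left out did a member pass an adjusted p of 0.05.

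Array quality weights, chosen after the data were seen, give libraries that deviate from their group less influence. They called 1 member, Notch3 (log2 change -0.70; limma adjusted p = 0.047), among 316 genes in all. They gave Nat10-deleted replicate 1 a weight of 3.74 and replicates 2 and 3 weights of 0.22 and 0.45, and replicate 1 is the library with the lowest Notch3. With these weights the member median was -0.22. In that fit 4 members (Notch1, Notch2, Notch3 and Heyl) had an unadjusted p under 0.05 (limma), as did 3730 of all 12640 genes. Over the other settings, 0 members were called.

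The libraries carried the members differently. The median difference of the 10 members from their control means ran from -0.07 to 0.07 log2 units in controls and was -0.23, -0.25 and 0.03 in Nat10-deleted replicates 1, 2 and 3. Nat10-deleted replicate 2 was the lowest of the 6 libraries for 6 members (Notch2, Jag1, Jag2, Dll1, Dll4 and Heyl) and replicate 1 for 3 (Notch1, Notch3 and Notch4). Nat10-deleted replicate 3 was the highest library for Notch4, Jag1 and Dll4. The standard deviation of the log2 values was larger among deleted than among control libraries for 9 of 10 members, with a median ratio of 2.62. Over all genes tested this held for 73.9%, with a median ratio of 1.73.

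**Figure D3:**
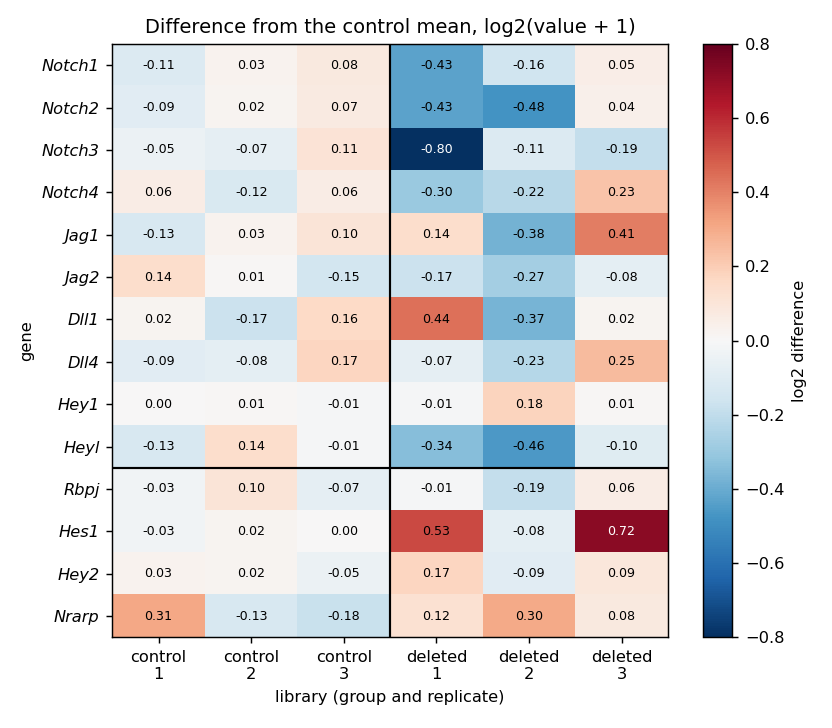
Difference of each library (columns, by group and replicate) from the control mean of log2(value + 1) for the 10 members (above the line) and for Rbpj, Hes1, Hey2 and Nrarp (below it), with red for higher and blue for lower. Nat10-deleted replicates 1 and 2 are blue for all receptors, while Hes1 reaches 0.53 and 0.72 in replicates 1 and 3 and -0.08 in replicate 2.

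The vessel-associated members were set beside markers of the cells known to express them. The 12 endothelial markers had summed levels of 439.1 to 505.9 among controls, against 394.1 to 495.6 among deleted libraries. Averages were lower in deleted uteri for 10 of the 12, beside 43.4% of all genes tested with a log2 change below 0, and for 3 of them the groups did not overlap, beside 4.6% of all genes. Of the 6 arterial endothelial markers, which include the pathway gene Hey2, 3 were lower on average and 0 were without overlap, with sums of 150.9 to 167.9, against 124.6 to 195.6. The 8 mural cell markers had summed levels of 405.1 to 437.9, against 380.8 to 447.6, with 5 of 8 lower on average and 0 without overlap. None of these markers was at 0 in any library. In bulk tissue, fewer cells of a type and less RNA per cell cannot be told apart.

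Markers of the other uterine layers were read in the same way. The 8 stromal markers were lower on average in deleted uteri in 8 of 8, 1 of them without overlap, and summed to 2763 to 3065 among controls, against 2332 to 2991. The 10 epithelial markers summed to 887.3 to 968.2, against 848.4 to 1161, with 4 of 10 lower on average and 3 higher without overlap, beside 6.12% of all genes. Sums of the 8 smooth muscle markers were 4127 to 4742, against 3838 to 4891, with 4 of 8 lower on average and 1 of these without overlap. The 5 markers of mesothelium, the outer lining, summed to 60.66 to 77.65, against 61.82 to 73.21. Of them 3 were lower on average, and for 2, Msln and Lrrn4, every deleted library lay below every control. Beside these counts, 43.4% of all genes tested had a log2 change below 0, and 4.6% were lower in deleted uteri without overlap. The part of these markers, and of the vessel markers, in the members' values was not tested apart from the ratios given next.

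Taken relative to the endothelial markers, as log2(value + 1) minus the mean log2(value + 1) of the markers, Notch4 was -2.60 ± 0.03 in controls, against -2.51 ± 0.17 after deletion (SD, n = 3; exact permutation p = 0.7). Dll4 was -1.31 ± 0.11 and -1.14 ± 0.14 (SD, n = 3; exact permutation p = 0.2), a difference of 0.17 that was 0.10 without Nat10-deleted replicate 3 and 0.11 without control replicate 1. Relative to the mural cell markers, Notch3 was -0.81, -0.66 and -0.69 in controls, against -1.53, -0.64 and -1.03 in deleted libraries, so that Nat10-deleted replicate 2 lay at the top of the 6 and the groups overlapped (exact permutation p = 0.4). The mean difference for Notch3 was -0.35, but -0.12 without Nat10-deleted replicate 1 and -0.56 without replicate 2 of that group. Heyl per mural cell marker was -2.09, -1.65 and -2.01 in controls, against -2.27, -2.19 and -2.14 in deleted libraries. Here every deleted library lay below every control, by a mean of -0.28 log2 units (exact two-sided permutation p = 0.1, the smallest possible for 3 against 3), or -0.15 without control replicate 2. Adjusted over these 4 comparisons by Benjamini-Hochberg, the exact permutation p-values were 0.7 for Notch4, 0.4 for Dll4, 0.533 for Notch3 and 0.4 for Heyl.

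The rest of the pathway was read from a list of 50 further genes, of which 46 passed the low-value filter. None passed the test (smallest limma adjusted p of 0.922), 0 had an unadjusted p under 0.05, and 0 of the 46 had groups without overlap, against 10.7% of all genes. Log2 changes were below 0 for 27 and above 0 for 19, with a median of -0.04. After quantile normalization the split was 31 and 15, and without Nat10-deleted replicate 2 it was 21 and 25. Without Nat10-deleted replicate 3 the groups did not overlap for 14 genes that were lower and 2 that were higher, when 14.7% and 15.6% of all genes behaved so. Values at or near 0 kept Dll3, Dlk2, Hes5 and Hes7 out of the test.

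None of the role groups held a gene that passed the test. The 7 gamma-secretase subunits, the proteases of the final cut, had log2 changes between -0.10 and 0.09. The 3 processing proteases Furin, Adam10 and Adam17 lay between -0.11 and 0.01, and the 5 glycosyltransferases, which tune ligand binding, between -0.18 and 0.10. The 12 genes of receptor or ligand trafficking and turnover, such as ubiquitin ligases and their adaptors, lay between -0.25 and 0.13, with 8 below 0. The 2 other ligands tested lay at -0.26 and -0.04. Of 6 genes listed as corepressors, 4 were below 0 and 2 above. Sharpin, at 0.15, is 1 of those above, and its listing as a Notch corepressor is doubtful. In the nuclear complex the 7 genes lay between -0.12 and 0.14. Rbpj itself, the DNA-binding partner of the cut receptor, was 25.5, 27.9 and 24.7 in controls, against 25.7, 22.7 and 27.1 in deleted libraries (log2 change -0.05; limma adjusted p = 0.986). Only Nat10-deleted replicate 2 was outside the control range, below it. Without that library the log2 change was 0.02, and without Nat10-deleted replicate 3 it was -0.10.

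The 4 other target genes tested had log2 changes from 0.03 to 0.39, and none passed the test. Hes1, a Notch-responsive repressor that other signals also induce, was 15.9, 16.5 and 16.3 in controls, against 23.8, 15.3 and 27.3 in deleted libraries. Nat10-deleted replicates 1 and 3 were far above the tight control range and replicate 2 was below it, the same arrangement of libraries as for Jag1. Its log2 change was 0.39 (95% interval -0.07 to 0.85; limma adjusted p = 0.922), 0.62 without Nat10-deleted replicate 2 and 0.23 when replicate 3 was left out instead. Array quality weights called it (log2 change 0.52; limma adjusted p = 0.047). The 6 immediate early genes used as handling markers, such as Fos and Egr1, summed to 125.7 to 135 in controls, against 122.8, 119.9 and 182.8 in deleted libraries. All 6 were higher on average in deleted uteri, beside 43.4% of all genes tested with a log2 change below 0. For 1 of them, Fos, the deleted libraries were higher without overlap, beside 6.12% of all genes. Fos was 1.8, 3.43 and 3.5 in controls, against 5.62, 6.01 and 5.86 in deleted libraries. The part of these 6 genes in the Hes1 values was not tested.

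Nrarp, a feedback inhibitor that Notch switches on, was 8.02, 5.65 and 5.4 in controls, against 6.92, 7.97 and 6.7 in deleted libraries. Control replicate 1 was the highest of the 6 and the groups overlapped (log2 change 0.17; 95% interval -0.21 to 0.55; limma adjusted p = 0.945). Without control replicate 1 the log2 change was 0.33, and without control replicate 3 it was 0.08.

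**Figure D4:**
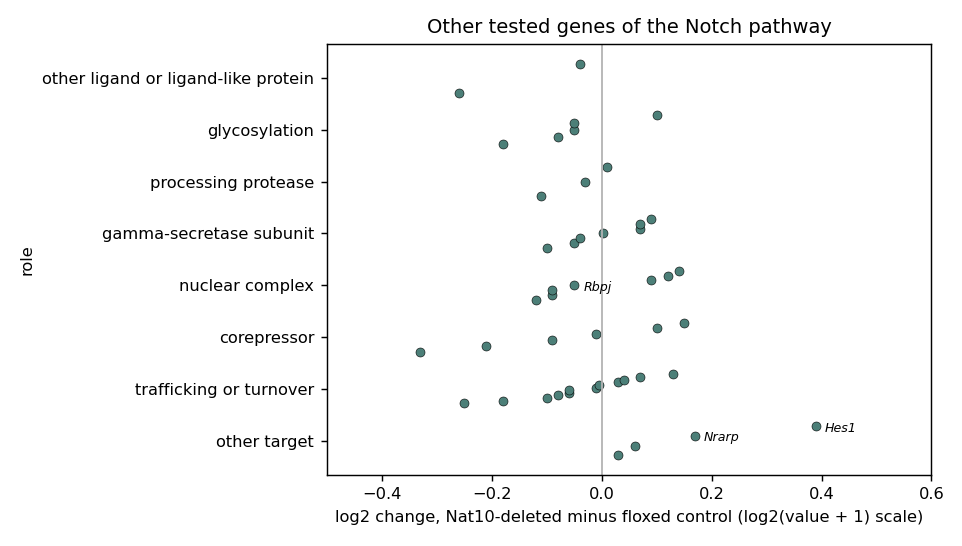
Log2 change of the 46 other tested Notch pathway genes, Nat10-deleted minus floxed control on the log2(value + 1) scale (x axis), 1 point per gene, arranged by role (y axis). Gamma-secretase subunits and processing proteases lie close to 0, Hes1 is highest at 0.39, and no gene passed the test.

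Genes with the library profile most like that of Heyl and Notch3, the members with the smallest p, were found by the root-mean-square difference between profiles over the 6 libraries, each centred and divided by its standard deviation. For Heyl these were Itpk1 (0.1), Birc6 (0.17) and Zadh2 (0.2), and for Notch3 Dctn1 (0.13), Usp21 (0.15) and Zfp82 (0.16). Among 12640 genes and 6 libraries close profiles arise easily, and the names are given as a description.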

How the data were processed

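The deposited tables hold 1 FPKM-type value per gene and library. The unit FPKM was inferred from the values the authors deposited and from Cufflinks 2.2.1, which the submitters' processing notes list with HISAT2 2.2.1 and the build mm10. Their roles, the annotation and the strand setting are not given in the sources used here, so genes overlapping on opposite strands are uncertain, as are near-identical copies such as Aph1b and Aph1c. Each sample's title gave its group and replicate number. No pair of libraries held identical values. Gene coordinates, transcript length and GC content came from GENCODE release M21 (GRCm38) and promoters from RefSeq (GRCm38.p6).

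Values were analysed as log2(value + 1), a scale that understates changes of low genes. Genes reaching 1 in 3 or more libraries were tested by limma 3.58.1 under R 4.3.3 (eBayes with a mean-variance trend, group as the only term, two-sided, Benjamini-Hochberg over all 12640 genes, threshold 0.05). Single values were compared by exact permutation. The fit was tested on simulated data for this comparison over 12640 genes. At a change of 1.5 log2 units 93.4% of changed genes were called, and at 0.5 log2 units 6.6%. The simulated noise was independent between libraries and equal in both groups. Real deleted libraries spread more than controls, with a median ratio of 1.73 over all genes tested, so these shares may not hold for the real fit. Alternatives were another pseudocount, filters, scalings, no trend, the replicate number as a block, and each library left out. Array quality weights and a GC content and length correction were added after the data were seen. Members, gene lists and tests were chosen with earlier results of these data known. Named genes are all members, Rbpj, Hes1, Nrarp, pathway genes with an unadjusted p under 0.05, and the genes closest in profile to the 2 members with the smallest p. Other pathway genes are named outside this rule, for a role, a sequence match or the filter, and were chosen after their values or sequences were seen. Python 3.11.15 with pandas 2.3.3, numpy 2.4.6 and matplotlib 3.10.9 was used otherwise. One gene of the pathway list is counted but not reported here by name.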

Additional observations from a re-analysis of the deposited data

How the results depend on the processing

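Of 160 alternative values of the members (10 members, 16 settings), 148 kept their direction and stayed above an adjusted p of 0.05, 11 changed direction and 1 was called. Median centring gave Dll1 -0.0011, and the GC content and length correction gave Notch4 0.10 and Dll4 0.03. With 1 library left out, log2 changes ranged from -0.12 to 0.27 for Jag1, from -0.18 to 0.23 for Dll1, from -0.15 to 0.09 for Dll4 and from -0.26 to 0.0035 for Notch4. Array quality weights called 316 genes, among them 1 member (Notch3, -0.70) and 1 other pathway gene (Hes1). Leaving out Nat10-deleted replicate 2 called 12 genes (4 higher, 8 lower), none of them a member, and leaving out any other library called 0. The member median was 0.01 after the GC content and length correction; the cause was not tested. The difference of Notch4 per endothelial marker, 0.09 over all libraries, ranged from -0.0046 (without Nat10-deleted replicate 3) to 0.15 (without Nat10-deleted replicate 1). With log2 of the summed marker values in place of the mean, that difference was 0.01. On the same footing it was 0.11 for Dll4, -0.38 for Notch3 and -0.33 for Heyl. The labels give replicate numbers and do not say whether these pair the samples. Deviations of same-numbered libraries from their group means correlated at -0.34, -0.03 and 0.1 over genes. With 3 libraries per group such correlations cannot show whether samples were paired. With the replicate number as a block, 0 genes, 0 members and 0 other pathway genes were called, as without it. Depth is unknown, so no limit from counting can be given for low genes such as Dll1.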
